A study of Mus musculus with 2 samples.

Results

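The 10 genes described here encode ligands through which tumour cells address T cells, natural killer (NK) cells and macrophages. They are Cd274, Pdcd1lg2, Cd80 and Cd276 of the B7 family, the poliovirus receptor gene Pvr and its relative Nectin2, the galectin gene Lgals9, Cd47, the NKG2D ligand gene Ulbp1 and the adhesion gene Icam1. They were taken by gene name from a deposited table of 54680 loci, and all 10 were found, each at 1 locus. RNA was sequenced from CT26 cells, a colon carcinoma line derived from a BALB/c mouse. Cells of the group CT26shSetdb1 were infected with lentivirus carrying a short hairpin RNA that targets Setdb1, the gene of a methyltransferase acting on histone H3, and are described in the labels as differentiated. Cells of the group CT26shCtrl had the same line and medium and received virus with the empty knockdown vector. Their genotype is given as wild type. Both were collected on day 6 of culture, and the libraries are called shSetdb1 and shCtrl below. Whether the infected cells were a pool or a clone is not stated in the labels. Each group had 1 library, so no difference below has a replicate check, and the values compare these libraries. Lower Setdb1, other effects of the hairpin, the infection and the culture cannot be told apart as sources of a difference. The labels name no second hairpin.

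Ligands of this kind set the threshold at which an immune cell acts on a tumour cell. PD-L1, encoded by Cd274, and PD-L2, encoded by Pdcd1lg2, engage PD-1 on T cells and dampen their activation, and galectin-9 is a ligand of the inhibitory receptor TIM-3. CD47 engages SIRP-alpha on macrophages as a signal against phagocytosis. The proteins of Pvr (CD155) and Nectin2 (CD112) are shared ligands: DNAM-1 activates NK and T cells on binding them, while TIGIT inhibits. ULBP1, also called MULT-1, activates NK cells through NKG2D, CD80 can costimulate through CD28 or inhibit through CTLA-4, and ICAM-1 anchors LFA-1 of the attacking lymphocyte. Transcription of several of these genes, among them Cd274, Lgals9 and Icam1, is known to respond to interferon or NF-kappaB signalling.

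Levels are given in FPKM, a read count divided by gene length and by depth, so that levels can be compared between genes; the depth used was 1 common value rather than the total of each library. The deposited values came out as whole reads for 100% of entries above 0, and the totals were 18421604 reads in shCtrl and 19045830 in shSetdb1, a ratio of 1.03. A difference is given as the log2 ratio of (FPKM + 1) in shSetdb1 to that in shCtrl, which understates changes of low genes. A gene was called higher or lower at a 2-fold difference or more on that scale when it reached 1 FPKM in at least 1 library, as 10671 loci did. Read ratios are relative to each library's total and carry 95% exact binomial (Clopper-Pearson) intervals, and levels carry 95% exact Poisson intervals. Both cover counting error only, since reads without molecular identifiers are not independent molecules. Setdb1 itself (chromosome 3, 95323525 to 95357202, GRCm38) was at 10.4 FPKM in shCtrl and 2.47 FPKM in shSetdb1, 23.7% of the control level. Its gene model overlaps Cers2, and whether counting used strand is not given in the sources used here.

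Lgals9 was the 1 member called higher, and no member was called lower. Across all tested loci 6.81% were called higher and 4.85% lower, so 1 call among 8 tested members is a share of little weight. Of the 8 members that reached 1 FPKM, 4 had a log2 ratio above 0 (Lgals9, Pvr, Nectin2 and Cd276) and 4 below 0 (Cd274, Cd80, Cd47 and Ulbp1). Their median was -0.05, beside -0.00039 over all tested loci, whose quartiles were -0.36 and 0.38. Over all 10 members the median was 0.12. Icam1 and Pdcd1lg2 stayed under 1 FPKM in both libraries, and Cd274 entered only through shCtrl, where it was higher. In bulk RNA, fewer cells expressing a gene and less RNA per cell cannot be told apart.

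**Figure D1:**
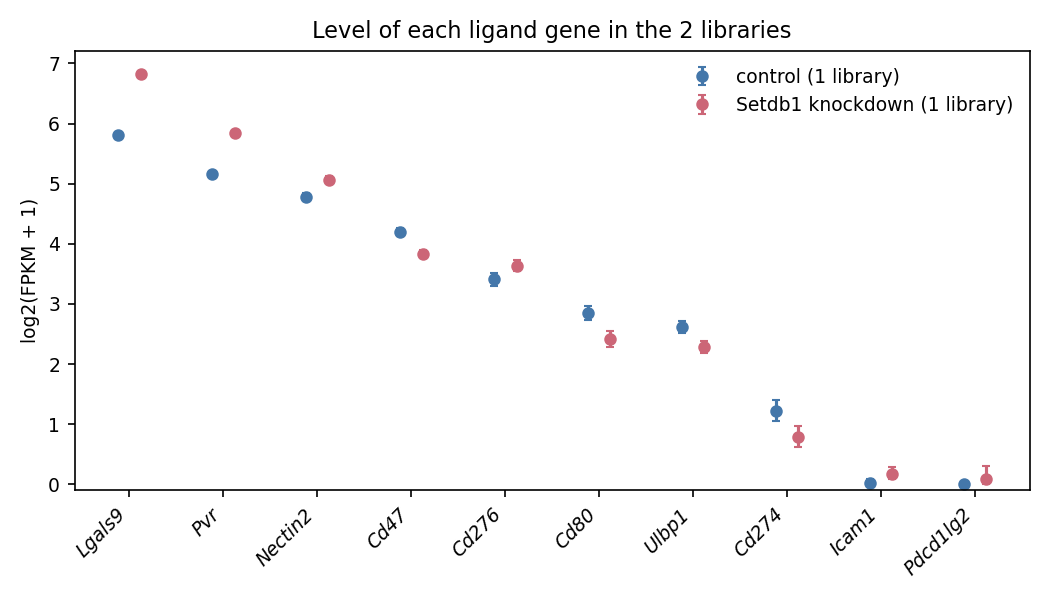
Level of each of the 10 ligand genes as log2(FPKM + 1), with 1 point per library and bars for 95% exact Poisson intervals of the reads (no bar at 0 reads). Genes are ordered by control level; Lgals9 is highest in both libraries, and Icam1 and Pdcd1lg2 lie near 0.

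The 8 tested members also differed between the libraries by more than counting error. A two-sided exact binomial test of each locus's reads, with Benjamini-Hochberg adjustment over the 10671 loci, placed 4 of them higher and 4 lower in shSetdb1. Cd274 was among the 4 lower and passed the filter only through shCtrl, where it was higher. The same test placed 34.7% of all tested loci higher and 40.2% lower. It compares those libraries and not the conditions, and at this background its calls say little about the members as a group.

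The order of the members by level was the same in both libraries. It ran Lgals9, Pvr, Nectin2, Cd47, Cd276, Cd80, Ulbp1, Cd274, Icam1 and Pdcd1lg2, from the highest to the lowest. In shCtrl each neighbouring pair was separated beyond its counting intervals except Icam1 and Pdcd1lg2. In shSetdb1 Cd80 and Ulbp1 also had overlapping intervals. The summed level of the 10 genes was 155.7 FPKM in shCtrl and 235.1 FPKM in shSetdb1, and Lgals9 made up 35.2% and 47.8% of these sums. Without Lgals9 the sums were 100.9 and 122.6 FPKM, of which Pvr made up 34.7 and 56.4 FPKM. The sums thus do not describe the members as a set, since 4 of the 8 tested members were lower in shSetdb1.

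For 3 members, Lgals9, Cd274 and Icam1, the promoter held a match to a motif of interferon or NF-kappaB signalling, and these stretches are shown because Lgals9 was called higher while Cd274, with the same kind of match, had a ratio below 0. The search used 250 bases before to 50 bases from the RefSeq start (GRCm38.p6), on both strands, and 9 of the 10 members had such a window; Pvr had none in the table. The motifs were the GAS element bound by STAT dimers (TTCNNNGAA), the core of the interferon-stimulated response element or ISRE (GAAANNGAA) and a core of NF-kappaB sites (GGANTTTCC). The motifs can share bases with one another in principle, and no such overlap occurred in these windows. The stretches below run from 160 bases before the start through its first 25 transcribed bases, 5′ to 3′ on the strand of the gene, with motif matches in capitals. They lie at chr11:78984900-78985084 (minus strand) for Lgals9, chr19:29367278-29367462 (plus strand) for Cd274 and chr9:21015780-21015964 (plus strand) for Icam1.
Lgals9: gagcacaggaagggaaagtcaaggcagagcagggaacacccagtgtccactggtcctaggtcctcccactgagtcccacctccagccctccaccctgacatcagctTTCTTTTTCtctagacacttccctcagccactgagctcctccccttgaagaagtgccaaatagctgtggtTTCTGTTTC
Cd274: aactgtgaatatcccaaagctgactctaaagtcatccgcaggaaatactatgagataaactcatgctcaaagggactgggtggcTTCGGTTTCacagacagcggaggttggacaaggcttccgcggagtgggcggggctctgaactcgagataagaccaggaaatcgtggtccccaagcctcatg
Icam1: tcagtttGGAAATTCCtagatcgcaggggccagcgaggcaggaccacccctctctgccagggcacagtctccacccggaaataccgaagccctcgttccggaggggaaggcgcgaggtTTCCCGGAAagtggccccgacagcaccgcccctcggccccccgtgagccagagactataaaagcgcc

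Lgals9 held 2 ISRE cores in reverse orientation, TTCTTTTTC starting 54 bases before the start and TTCTGTTTC starting 16 bases after it. Cd274 held 1, TTCGGTTTC starting 76 bases before its start. Icam1 held no ISRE core but a GAS element, TTCCCGGAA, 42 bases before the start and an NF-kappaB core, GGAAATTCC in reverse orientation, 153 bases before it. The other 6 members with a window (Nectin2, Cd276, Ulbp1, Cd80, Cd47 and Pdcd1lg2) held none of these letters. Among 32851 promoter windows of the same length, 8.56% held an ISRE core, 8.30% a GAS element and 1.25% the NF-kappaB core. A match is a string in the reference strain and not a measured binding site.

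**Figure D2:**
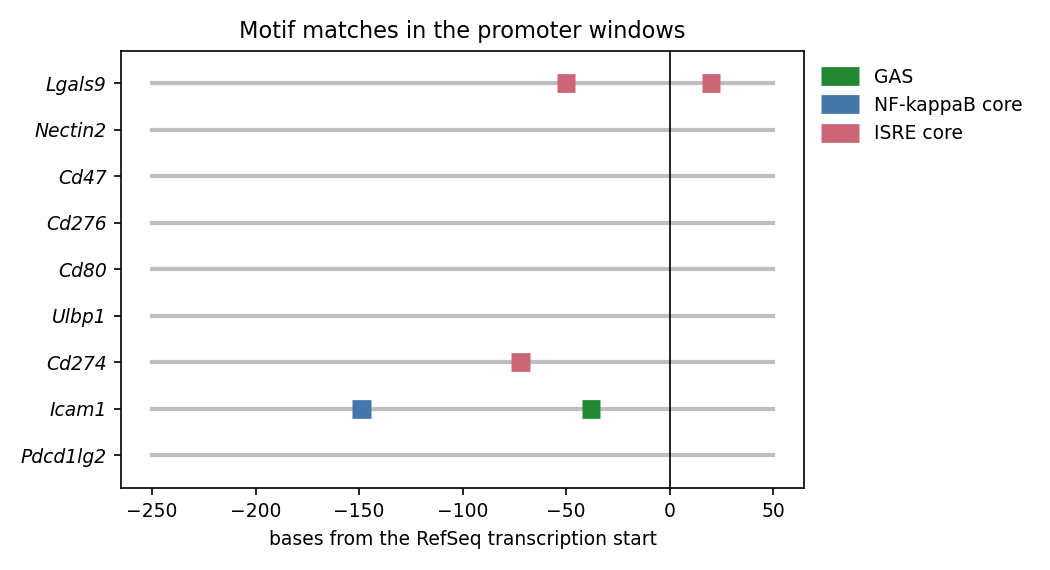
Motif matches in the promoter windows of the 9 members with a RefSeq window, by position in bases from the transcription start (vertical line at 0). Lgals9 has 2 ISRE cores, Cd274 has 1, Icam1 has a GAS element and an NF-kappaB core, and the other 6 windows are empty.

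Lgals9 (ENSMUSG00000001123, chromosome 11, 78962974 to 78984946), whose protein galectin-9 is a secreted and surface-bound lectin, went from 54.8 FPKM (2194 reads) in shCtrl to 112 FPKM (4501 reads) in shSetdb1. The log2 ratio was 1.02, higher than that of 93.6% of tested loci, and the read ratio was 1.98 (1.89 to 2.09), an interval that spans 2. The 2-fold call was lost under 4 scalings: the log2 ratio was 0.94 with upper-quartile scaling, 0.96 with the sum without the 100 highest genes, 0.98 with log2(CPM + 1) and 0.98 with each library's own read total. Its level was above that of 89.6% of tested loci in shCtrl. No other gene with reads overlapped its model. The protein-coding genes nearest to Lgals9 in level over the 2 libraries were Shisa5 (54.5 and 107 FPKM), Map7d1 (55.5 and 107 FPKM) and Ninj1 (51.4 and 111 FPKM), at distances of 0.069, 0.076 and 0.092 on the log2(FPKM + 1) scale; with 2 libraries this likeness says only that levels are close.

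Cd274 (ENSMUSG00000016496, chromosome 19, 29367455 to 29388095), the PD-L1 gene, was low in both libraries and lower in shSetdb1. It had 91 reads (1.34 FPKM, interval 1.08 to 1.65) in shCtrl and 49 reads (0.722 FPKM, interval 0.534 to 0.955) in shSetdb1. The log2 ratio was -0.44, with reads in the ratio 0.521 (0.360 to 0.745). With a pseudocount of 0.1 FPKM the log2 ratio was -0.81, still short of 2-fold. At 1.34 FPKM Cd274 stood above only 11.3% of tested loci. Its neighbour Pdcd1lg2 (ENSMUSG00000016498, chromosome 19, 29410919 to 29471157), the PD-L2 gene, begins 22823 bases after Cd274 ends. It had 0 reads in shCtrl, where a count of 0 allows up to 0.0974 FPKM, and 2 reads in shSetdb1, so no fold is given. Cd274 thus had fewer reads in shSetdb1 beyond counting error, but it reached 1 FPKM only in shCtrl, so the filter fixed its direction. A difference in Pdcd1lg2 was not detectable at this depth.

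Genes around the 2 PD-1 ligands were looked up by position after their values were seen. Of the 4 tested loci within 200 kb of Cd274, 3 had ratios below 0. The median over all tested loci was -0.00039, so 3 of 4 is a count of little weight. Jak2, encoding a kinase of the interferon-gamma receptor, was at 2.54 and 0.998 FPKM in the control and knockdown libraries (log2 ratio -0.82), and Ric1 was at 1.77 and 1.04 FPKM (-0.44). Jak2 reached 1 FPKM only in shCtrl, so the filter fixed its direction. Plgrkt, which starts 65 bases from Cd274 on the opposite strand, was at 4.71 and 3.41 FPKM (-0.37). Insl6 was the exception, with 17 and 61 reads and a log2 ratio of 1.30.

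Cd80 and Cd276 are the B7-family members whose proteins bind receptors other than PD-1 on T cells. Cd80 (ENSMUSG00000075122, chromosome 16, 38455561 to 38496335) had 430 reads (6.20 FPKM) in shCtrl and 300 reads (4.33 FPKM) in shSetdb1. The log2 ratio was -0.44, with reads in the ratio 0.675 (0.580 to 0.784). Cd80 transcript exceeded that of Cd274 per length 4.62-fold in shCtrl and 5.99-fold in shSetdb1. Cd276 (ENSMUSG00000035914, chromosome 9, 58524298 to 58555437), encoding B7-H3, was at 9.62 FPKM (659 reads) and 11.4 FPKM (783 reads). Its log2 ratio of 0.23 was the smallest in size among the tested members, with a read ratio of 1.15 (1.03 to 1.28).

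Pvr and Nectin2, the genes of the DNAM-1 and TIGIT ligands, followed Lgals9 in level, and both lay higher in shSetdb1 without reaching 2-fold. Pvr (ENSMUSG00000040511, chromosome 7, 19903578 to 19921160) had 3976 reads (34.7 FPKM) in shCtrl and 6462 reads (56.4 FPKM) in shSetdb1. The log2 ratio was 0.69, with reads in the ratio 1.57 (1.51 to 1.64), and 86.1% of tested loci had a ratio no higher. Pvr was called higher at a 1.5-fold threshold, as was Lgals9. Nectin2 (ENSMUSG00000062300, chromosome 7, 19716644 to 19750483) was at 26.5 FPKM (1737 reads) and 32.5 FPKM (2129 reads), with a log2 ratio of 0.28 and reads in the ratio 1.19 (1.11 to 1.26). Pvr exceeded Nectin2 per length by 1.31-fold in shCtrl and 1.73-fold in shSetdb1, and the read ratio intervals of the 2 genes did not overlap. The Pvr model overlaps the locus Gm16184, which also had reads.

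The 2 genes lie 153094 bases apart. Between them, and within 200 kb of each, are Bcl3, encoding a nuclear partner of NF-kappaB, at 0.582 and 4.21 FPKM (log2 ratio 1.72), and the locus Gm16174, with 2 and 16 reads (1.30). Gm16174 lies inside Bcl3 on the opposite strand, so without a known strand setting their reads cannot be told apart. Both loci reached 1 FPKM only in shSetdb1, so the filter fixed their direction. They were named after their values were seen.

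Cd47 and Ulbp1 both had fewer reads in shSetdb1. Cd47 (ENSMUSG00000055447, chromosome 16, 49800533 to 49915010) had 2038 reads (17.3 FPKM) in shCtrl against 1557 reads (13.2 FPKM), with a log2 ratio of -0.36 and reads in the ratio 0.739 (0.691 to 0.790). Qpctl, whose product modifies the amino terminus of CD47 that SIRP-alpha recognises, was at 3.43 and 3.94 FPKM (log2 ratio 0.16). Ulbp1 (ENSMUSG00000079685, chromosome 10, 7440362 to 7473638) had 647 reads (5.14 FPKM) in shCtrl and 486 reads (3.86 FPKM) in shSetdb1, with a log2 ratio of -0.34 and reads in the ratio 0.727 (0.645 to 0.819). Of the NKG2D ligand genes found by name it was the 1 with reads. Raet1d, Raet1e, H60b and H60c were listed at 0 in both libraries, where the limit taken, 3 reads, is 0.0569 to 0.132 FPKM depending on gene length. Raet1a, Raet1b, Raet1c and H60a had no locus under these names in the deposited table, so their reads could not be counted. These families differ between mouse strains, and the reference is C57BL/6J while CT26 is of BALB/c origin.

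Icam1 (ENSMUSG00000037405, chromosome 9, 21015985 to 21028817) had 1 read (0.0122 FPKM) in shCtrl and 10 reads (0.122 FPKM) in shSetdb1. Relative to library totals this is a ratio of 9.67 (1.38 to 420), and the gene stayed far under 1 FPKM in both. Vcam1, encoding another adhesion ligand for leukocytes, was at 6.50 and 6.96 FPKM (log2 ratio 0.09).

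**Figure D3:**
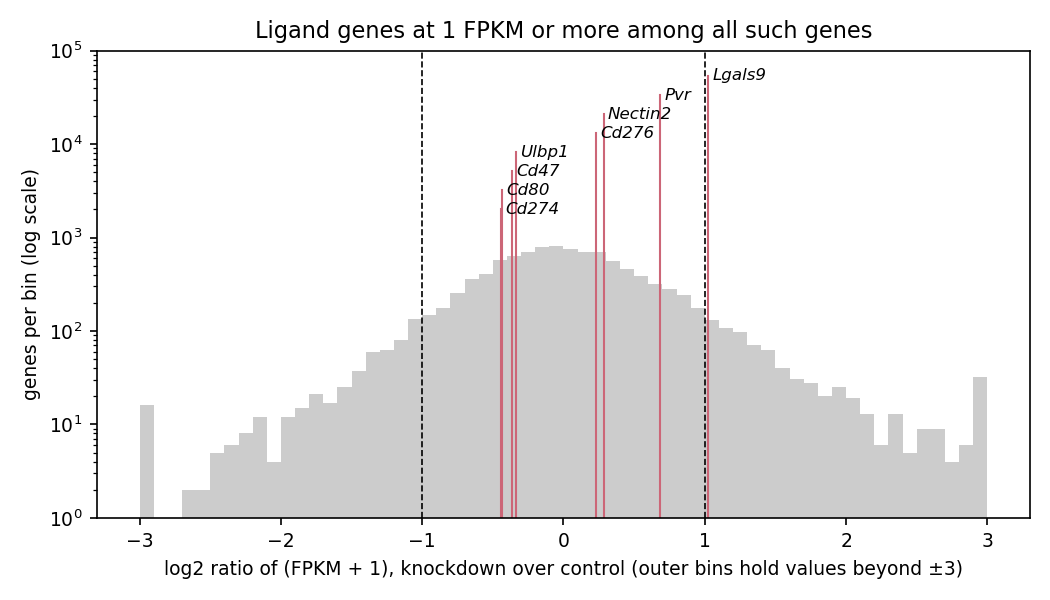
Histogram of the log2 ratio of (FPKM + 1), knockdown over control, for the 10671 tested loci on a log count axis, with 1 vertical line for each of the 8 tested members (line heights only separate the names) and dashed lines at 2-fold. Lgals9 lies just past the upper line at 1.02 and the other 7 lie between -0.44 and 0.69.

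Related genes were taken from 8 lists by role, 119 genes of which 115 were in the table and 58 were tested. Of the 58, 10 were called higher and 4 lower. The shares over all tested loci, 6.81% higher and 4.85% lower, are the background for this count and for the count of each list below, most of which rest on few tested genes. Most other B7-type and inhibitory ligand genes stayed under 1 FPKM. Of 6 further B7-type genes only Vtcn1, encoding the inhibitory ligand B7-H4, was tested, at 1.73 and 3.32 FPKM (log2 ratio 0.66), and Cd86 had 0 reads in both libraries. Of 18 other checkpoint and inhibitory ligands 6 were tested and 0 were called, with a median of 0.17. Their highest ratio was that of Ceacam1, at 0.395 and 1.31 FPKM (0.72), and the lowest that of Hmgb1 (-0.19), whose model overlaps Uspl1. Ceacam1 reached 1 FPKM only in shSetdb1, so the filter fixed its direction. The galectin gene Lgals3 (512 and 832 FPKM) had a log2 ratio of 0.70, while Lgals1 (5885 and 6080 FPKM) had 0.05.

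Genes of MHC class I heavy chains, which NK cells read as a signal of restraint, were called higher, and the other tested NK-cell and adhesion ligands were not called. Of 16 genes, 7 were tested, 3 were called higher and 0 lower, with a median of 0.87. H2-T23, whose Qa-1 protein is the ligand of NKG2A, was at 5.23 and 39.4 FPKM (log2 ratio 2.70). H2-K1 was at 29.7 and 117 FPKM (1.95) and H2-D1 at 389 and 937 FPKM (1.27). B2m, encoding the shared light chain, was at 1134 and 2079 FPKM (0.87) and was not called. H2 genes are close paralogs, so the division of reads among them is uncertain. Clec2d, encoding a ligand of an inhibitory NK receptor, was at 6.43 and 7.61 FPKM (0.21), and Cadm1, whose product is a ligand of the receptor CRTAM, at 11.6 and 6.49 FPKM (-0.75). The read ratio intervals of the 3 called genes, H2-T23 (6.44 to 8.29), H2-K1 (3.61 to 4.05) and H2-D1 (2.29 to 2.37), lay above those of all 8 tested ligand genes. Among these ligand genes Lgals9 reached highest (1.89 to 2.09), and the interval of B2m (1.74 to 1.81) lay below it. The reference is of another mouse strain than CT26, and counting intervals do not cover this.

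Among 11 ligands and related genes of the TNF family that costimulate or kill, Tnfsf9, encoding 4-1BB ligand, was the 1 tested, and it was called higher. It was at 4.30 FPKM (104 reads) in shCtrl and 16.8 FPKM (406 reads) in shSetdb1, a log2 ratio of 1.75. The locus Gm11110 overlaps it and also had reads. Genes at 0 reads in both libraries were Tnfsf4, Tnfsf8, Tnfsf14, Tnfsf15, Cd70, Cd40, Tnfsf10, Fasl and Tnf.

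**Figure D4:**
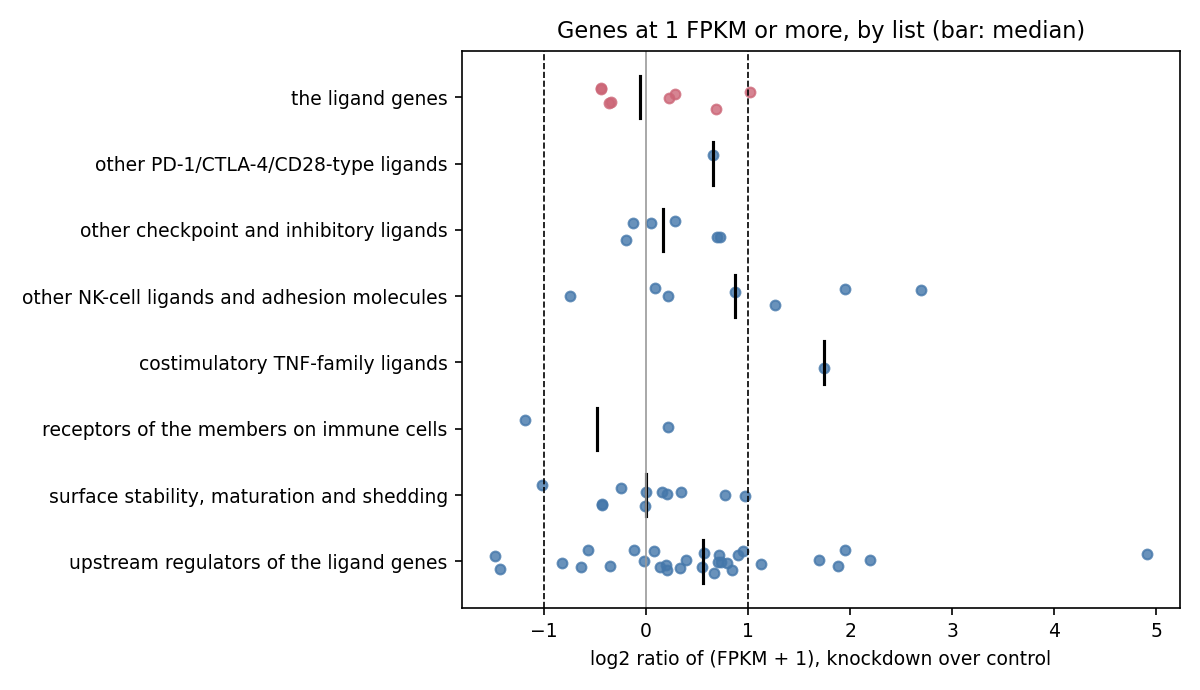
Log2 ratio of (FPKM + 1), knockdown over control, for each tested gene of the ligand set (8 of 10 genes, top row) and of the related lists, with the median as a bar and dashed lines at 2-fold; the list of other NKG2D ligands had no tested gene. The ligand genes lie within or just past 2-fold, while Irf7 among the regulators lies at 4.91.

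Genes that act on the stability, maturation or shedding of the ligand proteins were mixed. Of 14, 11 were tested, 0 were called higher and 1 lower, with a median of 0.01. Gsk3b, encoding a kinase that marks PD-L1 for degradation, was called lower, from 6.46 to 2.68 FPKM (log2 ratio -1.02). Cmtm6, encoding a protein that keeps PD-L1 at the surface, was at 10.2 and 18.1 FPKM (0.78), and its relative Cmtm4 at 17.2 and 12.5 FPKM (-0.43). The highest ratio among the 11 tested was that of Hip1r, at 5.20 and 11.1 FPKM (0.97), which was not called. Stub1 was at 74.0 and 85.3 FPKM (0.20). The sheddase genes Adam10 (3.98 and 2.69 FPKM) and Adam17 (1.86 and 2.63 FPKM) had ratios of -0.43 and 0.35. Protein at the surface was not measured.

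Of 30 regulators of the ligand genes all were tested, 6 were called higher and 2 lower, with a median of 0.56. The interferon factors Irf7 (9.02 and 300.1 FPKM, log2 ratio 4.91), Stat2 (5.21 and 27.5 FPKM, 2.20) and Irf9 (6.34 and 26.0 FPKM, 1.88) were called higher. Irf1, a factor known for induction of Cd274 by interferon-gamma, was not called, at 9.84 and 19.3 FPKM (0.91). The NF-kappaB inhibitor gene Nfkbia (12.8 and 52.3 FPKM, 1.95), Socs3 (7.59 and 17.8 FPKM, 1.13) and Jun (15.5 and 52.7 FPKM, 1.70) were also called higher. Myc (86.5 and 30.4 FPKM, -1.48) and Atf4 (479 and 178 FPKM, -1.42) were called lower. Of the receptor and kinase genes, Ifngr1 had a ratio of -0.02, Ifngr2 0.95, Jak1 -0.35 and Jak2 -0.82. Jak2 entered only through shCtrl, where it was higher. The models of Irf7 and Irf9 overlap Phrf1 and Rnf31, which also had reads.

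Markers of other cells were checked, since several members are also made by antigen-presenting cells. Of 22 markers of T, B, NK and myeloid cells, 20 were under 1 FPKM, with 33 reads in shCtrl and 36 in shSetdb1 in all, and 11 had 0 reads in both, among them Cd3e, Ncr1, Itgam and Adgre1. The 2 above 1 FPKM were Cd14 (21.7 and 41.3 FPKM) and Lck (3.08 and 0.656 FPKM), so the summed level of the 22 was 26.0 FPKM in shCtrl and 43.1 FPKM in shSetdb1. The endothelial markers Pecam1, Cdh5 and Kdr had 0 reads. Of 9 colon epithelial markers, Krt18 (37.7 and 90.0 FPKM) and Krt20 (5.07 and 35.6 FPKM) reached 1 FPKM in both libraries and were called higher. Krt19 (1 and 53 reads) reached 1 FPKM only in shSetdb1, so the filter fixed its direction. Epcam, Cdh1 and Cdx1 of this list had 0 reads in both. Krt8 (7 and 8 reads), Cdx2 (5 and 18 reads) and Vil1 (1 and 7 reads) stayed under 1 FPKM. All 7 mesenchymal markers were tested and 0 were called, with 3 ratios above 0, 4 below 0 and a median of -0.15. They ran from Fn1 (381 and 534 FPKM, 0.49) to Col3a1 (2.68 and 0.887 FPKM, -0.96), with Vim at 752 and 835 FPKM (0.15). Col3a1 reached 1 FPKM only in shCtrl, so the filter fixed its direction. The part of these differences in the ligand values was not tested.

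**Figure D5:**
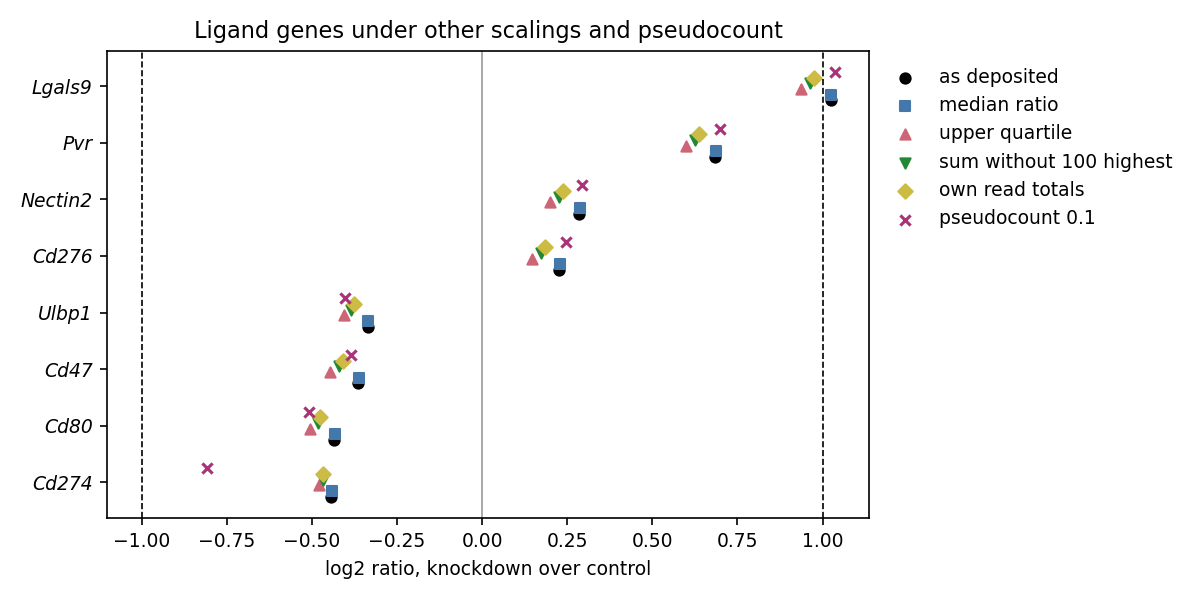
Log2 ratio, knockdown over control, of the 8 tested ligand genes as deposited, under 4 other scalings and with a pseudocount of 0.1 FPKM (symbols), with dashed lines at 2-fold. Lgals9 falls on both sides of the line at 1, and every other member keeps its side of 0 and stays short of 2-fold.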

How the data were processed

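The deposited table gave FPKM for 1 library of each group, per the file headers; the submitters' processing notes name CASAVA, HISAT2, featureCounts 1.5.0-p3 and GRCm38, with no order or role. The strand setting is not given in the sources used here. Columns were matched to samples by library name. Of 54495 IDs found in GENCODE M21 (GRCm38), 98.3% had the same start and end. Multiplying each FPKM by its gene's length gave whole multiples of 1 step, read as reads, within 0.01 of whole numbers; the authors had divided both libraries by the same depth of 18731117. From these, log2 ratios were computed with a pseudocount of 1 and a filter at 1 FPKM. No p-value was computed between conditions, as each group had 1 library. The calculations were tested on data simulated with counting error only, so that check does not cover variation between cultures or libraries.

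The genes named are the 10 members, Setdb1, in each related list those past 2-fold or otherwise the highest and lowest, and the 3 protein-coding genes nearest to the member with the largest ratio. Other genes were named for their known role, position or ratio after their values were seen. The members and lists were chosen with earlier results of these data known. Where a count was 0, 3 reads were taken as the limit. Alternatives were another pseudocount, other filters, scalings and thresholds, and an exact binomial test of reads. Scripts used scipy 1.17.1, pandas 2.3.3, numpy 2.4.6 and matplotlib 3.10.9 under Python 3.11.15. Some genes of the lists are counted but not reported by name here.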

Additional observations from a re-analysis of the deposited data

How the results depend on the processing

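Scaling by each library's own read total was chosen after seeing the data; the other alternatives were planned. Of 60 alternative values of the members' log2 ratios, 6 moved beyond the counting interval, or by 0.1 or more for Pdcd1lg2, and 0 changed sign. Another pseudocount cannot change a sign, and Pdcd1lg2, with 0 reads in shCtrl, cannot fall below 0. The count of members called higher was 0 with upper-quartile scaling, with the sum without the 100 highest genes, with log2(CPM + 1), with own read totals and at 4-fold, and 2 at 1.5-fold. The binomial test gave 4 members higher and 4 lower, against 3699 and 4286 of all loci. The median of the tested members was 0.12 with no filter and 0.23 with the filter at 5 FPKM, since other members then enter or drop out. With a pseudocount of 0.1, 1134 loci were called higher and 870 lower, 16 related genes were called higher, and the Setdb1 ratio was -2.04; on log2(CPM + 1) it was -2.06. At 1.5-fold 1804 and 1523 loci and 24 and 7 related genes were called; at 4-fold these were 116 and 56, and 3 and 0. With only the 250 bases before the start, the number of members with each motif did not change, but the Lgals9 match after the start dropped out and the share of promoters with an ISRE core was 7.13%. Except where the setting itself makes the change, the cause was not tested. No paired analysis was possible because only 1 library was made per group, which also means that none could be left out. Precision was lowest for Icam1 and Pdcd1lg2, with 10 reads or fewer in each library.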

Other observations

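Reads of a receptor of the ligands were also present in both libraries. Of 16 genes for receptors of the members on immune cells, 10 had 0 reads in both libraries (Pdcd1, Ctla4, Cd28, Sirpa, Cd226, Cd96, Itgam, Klrk1, Tyrobp and Treml2) and 2 were tested. Tigit (ENSMUSG00000071552, chromosome 16, 43648867 to 43664146), whose product is the inhibitory receptor for the proteins of Pvr and Nectin2, was at 31.7 FPKM (545 reads) in shCtrl and 13.4 FPKM (231 reads) in shSetdb1. It was called lower, with a log2 ratio of -1.18 and reads in the ratio 0.410 (0.350 to 0.479). Its control level lay close to those of Pvr (34.7 FPKM) and Nectin2 (26.5 FPKM), and no other gene with reads overlapped it. Itgb2, encoding the beta chain of LFA-1, the receptor of ICAM-1, had 143 and 176 reads (log2 ratio 0.22), while Itgal, encoding its alpha chain, had 4 reads and 0 reads.

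Lck, encoding a kinase of T-cell receptor signalling, went from 169 to 36 reads, a read ratio of 0.206 (0.140 to 0.297). It reached 1 FPKM only in shCtrl, so the filter fixed its direction. Of the other 6 genes of the CD45 and T-cell list, Cd3e, Cd3d, Cd8a and Trac had 0 reads in both libraries, Ptprc had 0 and 4 reads and Cd4 had 1 and 4 reads. The part of other cells in the Tigit and Lck values was not tested.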
